A study of Mus musculus with 13 samples.

Results

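Gadd45a, Runx1, Myog, Hdac4, Hdac9 and Ncam1 are genes whose transcripts respond when a skeletal muscle fibre loses its nerve. They were taken by name, 6 of the 24015 genes in the table, and all 6 passed the filter on low values, as did 11876 genes in all. RNA of whole quadriceps muscle from C57BL/6 mice was sequenced in 13 libraries. Levels are in TPM, a transcript's share of its library with its length taken into account, so genes can be compared with each other but the depth behind a value is unknown. The 4 groups were aged mice given SW033291 in batch 2 (replicates 1, 4 and 6), aged mice given vehicle in batch 2 (replicates 2, 3 and 8), aged mice given vehicle in batch 1 (replicates 2, 3 and 4) and young mice given vehicle in batch 1 (replicates 1, 3, 4 and 5). The labels put aged mice at over 24 months and young mice at 3 months. SW033291, which blocks 15-PGDH, an enzyme that breaks down prostaglandins, was injected daily at 5 mg/kg, the vehicle was ethanol and Cremophor EL in dextrose solution, and every mouse was injected for 4 weeks. No sex or further allele is named in the labels. Whether the libraries of a group came from different mice is not stated either, so a p-value reflects only how far these libraries spread, which may be technical.

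As background, a fibre that is no longer driven by its motor neuron changes its transcription along a known chain. Hdac4, a class IIa histone deacetylase, accumulates after denervation and represses Dach2, which relieves repression of Myog, the myogenic transcription factor myogenin. Myogenin in turn drives genes of acetylcholine receptor subunits and of ubiquitin ligases that degrade muscle protein. Gadd45a, a small nuclear stress protein, is induced by denervation with the help of Hdac4 and promotes fibre atrophy. Runx1, a DNA-binding transcription factor better known from blood cells, is strongly induced in denervated fibres and limits their wasting. Ncam1 encodes a cell adhesion molecule that spreads over the surface of denervated fibres. Hdac9, the other class IIa deacetylase here, binds MEF2 factors like Hdac4, but is known for lower, not higher, transcript levels in denervated mouse muscle.

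Promoter sequences from RefSeq (GRCm38.p6, 250 bases before to 50 after a start site, shown on the gene's strand) were found for 5 of the 6 genes, with 7 start sites. Those of Gadd45a and Runx1 are shown because these transcripts moved together across libraries, and that of Myog because it is the textbook target of the denervation chain. Capitals mark matches to the E-box CANNTG, which myogenin and related factors bind, to the RUNX core TGTGGT or its complement ACCACA, and to the AP-1 motif TGANTCA. Both strands were searched. Of 32851 mouse promoters of this length, 72.3% held an E-box, 16.8% a RUNX core and 7.81% an AP-1 motif.
Gadd45a (chr6:67037358-67037657, minus strand): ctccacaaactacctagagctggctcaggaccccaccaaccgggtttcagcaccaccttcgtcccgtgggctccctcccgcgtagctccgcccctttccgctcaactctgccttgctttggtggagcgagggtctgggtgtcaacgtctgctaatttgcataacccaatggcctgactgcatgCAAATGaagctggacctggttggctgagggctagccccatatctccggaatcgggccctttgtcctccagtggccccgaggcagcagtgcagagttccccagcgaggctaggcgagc
Runx1, upstream start site (chr16:92826025-92826324, minus strand): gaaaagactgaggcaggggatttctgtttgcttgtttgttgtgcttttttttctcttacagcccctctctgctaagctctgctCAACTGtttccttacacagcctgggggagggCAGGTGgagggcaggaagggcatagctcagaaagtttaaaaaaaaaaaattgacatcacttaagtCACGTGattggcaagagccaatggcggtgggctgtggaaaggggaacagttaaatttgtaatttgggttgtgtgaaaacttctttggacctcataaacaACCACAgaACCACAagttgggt
Myog (chr1:134289754-134290053, plus strand): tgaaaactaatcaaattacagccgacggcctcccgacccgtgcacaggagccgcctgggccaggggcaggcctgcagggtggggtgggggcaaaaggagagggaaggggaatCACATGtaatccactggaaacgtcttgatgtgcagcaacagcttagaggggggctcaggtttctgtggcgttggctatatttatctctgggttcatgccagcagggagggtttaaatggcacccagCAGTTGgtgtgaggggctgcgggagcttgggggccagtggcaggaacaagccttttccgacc
The Gadd45a window held 1 E-box. The Runx1 window held 3 E-boxes, all before the start site, and 2 RUNX cores, both after it. The Myog window held 2 E-boxes and no RUNX core, and the 2 windows of Hdac9 held 2 and 3 E-boxes. The sole AP-1 match, in the Hdac9 window with 3 E-boxes, overlapped one of them, and no matches overlapped in the 3 windows shown. The window of the other Runx1 start site and that of Hdac4 held no match to these letters. A match describes letters in a window and not binding of a factor in these muscles.

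The label of the tissue was checked against 12 muscle fibre markers, all of them above 0 in every library, with summed levels of 172789 to 195429 TPM in aged SW033291, 180059 to 182871 TPM in aged vehicle of batch 2, 151056 to 180346 TPM in aged vehicle of batch 1 and 184336 to 194610 TPM in young vehicle libraries. Markers of other cells differed more between libraries. The 11 neutrophil markers in the table summed to 9.53, 234 and 6.55 TPM in aged SW033291 replicates 1, 4 and 6, and to 781, 7.81 and 22.4 TPM in aged vehicle replicates 2, 3 and 8 of batch 2. They summed to 0.94, 5.53 and 1768 TPM in aged vehicle replicates 2, 3 and 4 of batch 1, against 0.88 to 2.92 TPM in young libraries. In whole muscle, fewer cells of a type and less RNA per cell cannot be told apart.

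The first comparison asks how these transcripts differ with age, in vehicle-treated muscle of batch 1. Gadd45a rose with age and was the single member of the 6 that passed the test. Runx1, Myog and Ncam1 were higher in all 3 aged libraries than in all 4 young ones, without passing. At an unadjusted p under 0.05 stood 4 of the 6, where 9.92% of all genes did. Hdac4 and Hdac9 had groups that overlapped. With limma and Benjamini-Hochberg adjustment over all genes, 0.455% of the 11876 tested genes passed an adjusted p of 0.05 in either direction and 0.37% passed as higher. Of single libraries, omitting young replicate 1, 4 or 5 left 19, 26 or 21 calls among all genes in place of 54, and omitting aged replicate 2 or 4 gave 19 or 92. The 4 members whose groups did not overlap stand against 8.85% of all genes with every aged library above every young one. The median log2 difference of the 6 was 0.69, against 0.06 for all genes tested, and all 6 were above 0. The 6 were chosen with earlier results of these data known, so these counts and their direction are no independent evidence.

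**Figure D1:**
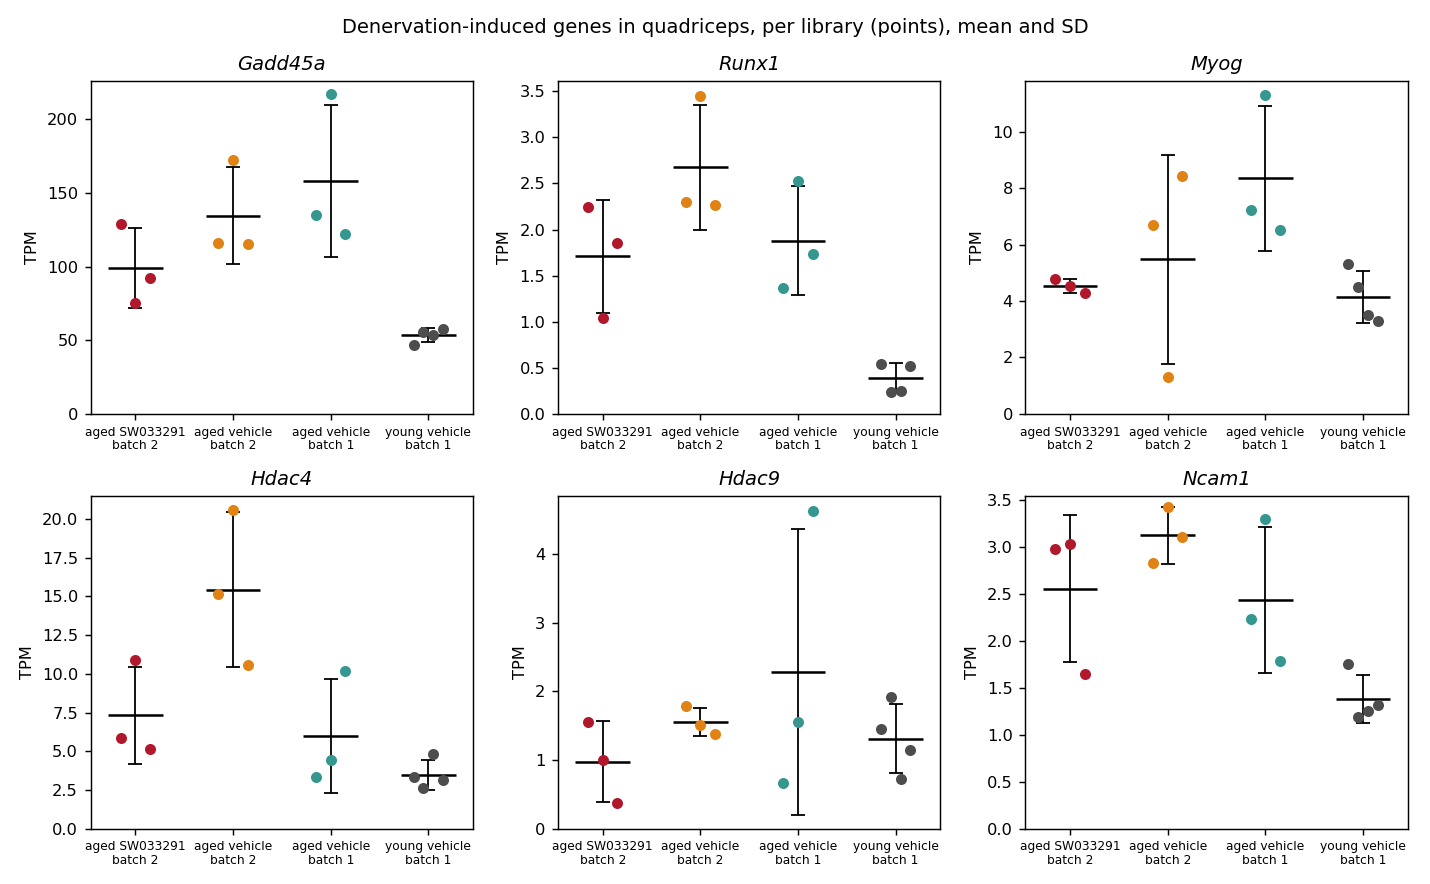
Level of each of the 6 genes in TPM (vertical axis, from 0, its own scale per gene) in the 4 groups (horizontal axis), with 1 point per library and the mean with its SD in black. Gadd45a and Runx1 lie higher in each of the 9 aged libraries than in each of the 4 young libraries. Myog, Hdac4, Hdac9 and Ncam1 overlap between aged and young.

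Gadd45a stood at 134.8, 217.5 and 122.4 TPM in aged vehicle replicates 2, 3 and 4, against 47.06, 55.91, 53.56 and 57.6 TPM in young replicates 1, 3, 4 and 5. The lowest aged library was thus above the highest young library, and the spread among young libraries was small. The mean was 158 ± 51.7 TPM (SD, n = 3) in aged and 53.5 ± 4.62 TPM (SD, n = 4) in young muscle. The log2 difference was 1.503 (SE 0.22, 95% interval 1.04 to 1.97, limma adjusted p = 0.0079). Gadd45a passed whichever of the 7 libraries was omitted, with log2 differences of 1.25 to 1.66. Gadd45a was by far the most abundant of the 6 genes in every group. In the authors' deposited table of age, Gadd45a had a log2 change of 1.30 (SE 0.19, adjusted p = 2.33e-09). Only 813 genes were found in that table, and whether it was limited to genes that passed is not stated.

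Runx1 measured 1.37, 2.53 and 1.74 TPM in the aged libraries 2, 3 and 4, against 0.54, 0.24, 0.25 and 0.52 TPM in young replicates 1, 3, 4 and 5. No aged library reached down to the young range. Its log2 difference of 1.04 (SE 0.22, limma adjusted p = 0.058) did not pass. These levels are near 1 TPM, where the log2(TPM + 1) scale understates a difference, and with 0.1 in place of 1 added to each TPM the difference was 2.05 (limma adjusted p = 0.039). Runx1 also passed under quantile normalization (limma adjusted p = 0.033) and with the 20 most abundant genes left out (limma adjusted p = 0.048). It passed under 5 of 18 alternatives, including those with batch 2 libraries. In the 7 fits without 1 library it passed 0 times (limma adjusted p = 0.083 to 0.17). In the authors' deposited table of age, Runx1 had a log2 change of 2.39 (adjusted p = 3.69e-10). Runx1 is also made by leukocytes. The 9 leukocyte markers summed to 12.8, 14.8 and 58.7 TPM in aged replicates 2, 3 and 4, against 14.7 to 36.5 TPM in young libraries. Of the 11 neutrophil markers, 9, 3 and 0 were at 0 in aged replicates 2, 3 and 4, against 8 to 10 in young libraries. The part of these cells in the Runx1 level was not tested. Without aged replicate 4, which held the most of both, the log2 difference of Runx1 was 1.07 (limma adjusted p = 0.083).

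Myog measured 7.24, 11.3 and 6.53 TPM in the aged libraries 2, 3 and 4, against 5.3, 4.49, 3.5 and 3.29 TPM in young replicates 1, 3, 4 and 5. The aged libraries were all above the young ones, with replicate 3 the highest as it was for Gadd45a and Runx1. The log2 difference was 0.85 (SE 0.37, limma adjusted p = 0.47). Myog was not among the 813 genes of the authors' deposited table of age. Satellite cells, the stem cells of muscle, make myogenin when they differentiate. Their 8 markers summed to 63.0 to 92.0 TPM in aged and 74.7 to 80.9 TPM in young libraries, and none of the 8 was at 0 in any of these. Of the 5 that were tested, 3 were above 0 and 2 below 0 with age, and none passed. The largest of these differences was that of Chodl, at -0.64 (limma adjusted p = 0.39). Pax7, too low to enter the test, reached at most 0.24 TPM in aged libraries of batch 1, against 0.41 TPM or more in young ones. Myf5 and Calcr, also too low for the test, overlapped between these groups. The part of satellite cells in the Myog level was not tested.

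Ncam1 measured 2.23, 3.3 and 1.78 TPM in the aged libraries 2, 3 and 4, against 1.75, 1.19, 1.25 and 1.32 TPM in young replicates 1, 3, 4 and 5. The groups were separated by a narrow gap, between aged replicate 4 and young replicate 1. The log2 difference was 0.51 (SE 0.21, limma adjusted p = 0.39), and the authors' deposited table of age gives 0.80 (adjusted p = 0.027). Schwann cells, the sheath cells of nerve, also make Ncam1. Their 10 markers summed to 51.4, 146 and 37.8 TPM in aged replicates 2, 3 and 4, against 60.5 to 127 TPM in young libraries. The part of Schwann cells in the Ncam1 level was not tested.

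Hdac4 measured 3.35, 4.4 and 10.17 TPM in the aged libraries 2, 3 and 4, against 3.35, 2.61, 4.84 and 3.12 TPM in young replicates 1, 3, 4 and 5. Aged replicate 4 was far above the rest, and the other 2 aged libraries lay within the young range. The log2 difference was 0.54 (SE 0.33, limma adjusted p = 0.67), and 0.14 without aged replicate 4. The authors' deposited table of age gives Hdac4 a log2 change of 1.44 (SE 0.37, adjusted p = 0.0066). That is past the threshold that the limma fit missed, but neither the libraries of that table nor the choice of its genes is stated. Hdac9 measured 0.67, 1.55 and 4.63 TPM in the aged libraries 2, 3 and 4, against 1.45, 1.92, 0.73 and 1.14 TPM in young replicates 1, 3, 4 and 5. Again aged replicate 4 alone was above the young range, and replicate 2 was below it. The log2 difference of Hdac9 was 0.35 (SE 0.35, limma adjusted p = 0.83) and turned to -0.14 without aged replicate 4. Like Myog, Hdac9 was not among the genes of the authors' deposited table of age. That library also held 1768 TPM of neutrophil markers and 58.7 TPM of leukocyte markers, the highest of all libraries, and the part of these in the Hdac9 level was not tested.

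**Figure D2:**
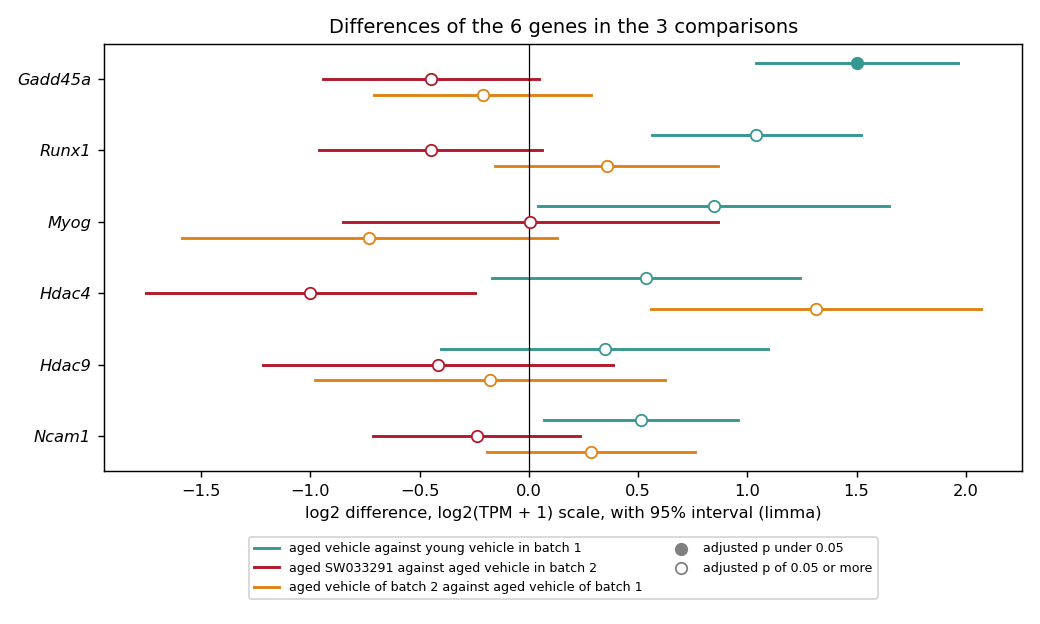
Log2 difference of each gene on the log2(TPM + 1) scale (horizontal axis) with its 95% interval from limma, in 3 comparisons distinguished by colour, with filled points for an adjusted p under 0.05. The single filled point is Gadd45a with age, at 1.503, and the intervals of Hdac4 lie below 0 with SW033291 and above 0 between the batches although neither passed after adjustment.

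The comparison of SW033291 with vehicle asks whether inhibition of 15-PGDH in aged muscle shifts these transcripts, within batch 2. None of the 6 passed, as none of the 11876 tested genes did (0%). At an unadjusted p under 0.05 the limma fit listed 1 of the 6, Hdac4, where 10.3% of all genes stood below that value, and in the authors' deposited table, Hdac4 was likewise the only one (log2 change -0.84, unadjusted p = 0.0016). The values of 5 members were below 0, with a median of -0.43. The median of all genes was -0.13, and median-of-ratios scaling moved it to -0.005, and a member's value is to be read against that shift.

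Hdac4 stood at 5.88, 10.89 and 5.16 TPM in SW033291 replicates 1, 4 and 6, against 15.18, 20.59 and 10.56 TPM in vehicle replicates 2, 3 and 8. The groups overlapped by a small margin, through SW033291 replicate 4 and vehicle replicate 8. The mean was 7.31 ± 3.12 TPM in SW033291 and 15.4 ± 5.02 TPM in vehicle libraries (SD, n = 3 each), a log2 difference of -1.001 (SE 0.35, limma adjusted p = 0.42). It was -0.86 under median-of-ratios scaling, and -1.28 without the 2 libraries that held most neutrophil transcripts, vehicle replicate 2 and SW033291 replicate 4. Over all alternatives the limma adjusted p lay between 0.26 and 0.77.

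Runx1 stood at 2.24, 1.04 and 1.85 TPM in SW033291 replicates 1, 4 and 6, against 2.3, 3.45 and 2.27 TPM in vehicle replicates 2, 3 and 8. Every SW033291 library was below every vehicle library, by a margin of 0.03 TPM between the nearest, a pattern seen in 15.1% of all genes. The log2 difference was -0.45 (SE 0.24, limma adjusted p = 0.53). Gadd45a stood at 128.7, 75.36 and 92.4 TPM in SW033291 replicates 1, 4 and 6, against 115.8, 172.5 and 115.2 TPM in vehicle replicates 2, 3 and 8. Its groups overlapped, with a log2 difference of -0.45 (SE 0.23, 95% interval -0.94 to 0.045, limma adjusted p = 0.52). All 3 SW033291 libraries were still above the highest young library for both Gadd45a and Runx1, although these groups were of different batches.

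Myog stood at 4.78, 4.54 and 4.29 TPM in SW033291 replicates 1, 4 and 6, against 6.71, 1.3 and 8.42 TPM in vehicle replicates 2, 3 and 8. The SW033291 libraries were close together, whereas vehicle replicate 3 held the lowest Myog of all 13 libraries and lay below every young library too. The log2 difference was 0.01 (SE 0.40, 95% interval -0.85 to 0.87, limma adjusted p = 0.996) and turned to -0.62 (limma adjusted p = 0.59) without vehicle replicate 3. Hdac9 ranged from 0.37 to 1.55 TPM in SW033291 and from 1.38 to 1.78 TPM in vehicle libraries, and Ncam1 from 1.65 to 3.03 TPM in SW033291 and from 2.83 to 3.43 TPM in vehicle libraries. Their log2 differences of -0.42 (SE 0.37) and -0.24 (SE 0.22) did not pass (limma adjusted p = 0.69 and 0.70).

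Aged vehicle libraries exist in both batches, and setting batch 2 against batch 1 shows how far each gene differs between aged libraries under the same treatment. The labels name the batches without saying what sets them apart. None of the 6 passed, against 2.25% of all genes in either direction, or 267 genes. That number rests on single libraries, being 18 without batch 1 replicate 2, 1643 without batch 1 replicate 4, 21 without batch 2 replicate 2, 21 without batch 2 replicate 3 and 478 without batch 2 replicate 8. With the trend of transcript length removed it was 9, and with only the compared groups in the fit it was 1. At an unadjusted p under 0.05 there was 1 of 6, Hdac4, against 18.1% of all genes. Hdac4 was at 10.56 TPM or more in batch 2 and at 10.17 TPM or less in batch 1, so the groups did not overlap, as in 11.9% of all genes with batch 2 above batch 1. Its log2 difference of 1.32 (SE 0.35) missed the threshold (limma adjusted p = 0.069) and passed without batch 1 replicate 4 (1.72, limma adjusted p = 0.0071) and without batch 2 replicate 8 (1.55, limma adjusted p = 0.043).

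The other members were closer between the batches. Gadd45a averaged 134.5 ± 32.9 TPM in batch 2 and 158 ± 51.7 TPM in batch 1 (SD, n = 3 each), with a log2 difference of -0.21 (limma adjusted p = 0.68). Runx1 averaged 2.67 ± 0.67 TPM in batch 2 and 1.88 ± 0.59 TPM in batch 1 (SD, n = 3 each), and its difference was 0.36 (limma adjusted p = 0.47). Myog averaged 5.48 ± 3.72 TPM in batch 2 and 8.36 ± 2.57 TPM in batch 1 (SD, n = 3 each), and its difference was -0.73 (limma adjusted p = 0.36). Ncam1 and Hdac9 differed by 0.28 and -0.18 (limma adjusted p = 0.54 and 0.86).

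When aged vehicle muscle of batch 2 was set against young muscle of batch 1, age and batch cannot be told apart, and 4 of the 6 passed, where 14.1% of all genes did. These were Gadd45a, Runx1 (1.397, limma adjusted p = 0.0027), Hdac4 (1.85, limma adjusted p = 0.0046) and Ncam1 (0.80, limma adjusted p = 0.023). With the aged vehicle libraries of both batches as 1 group, Gadd45a and Runx1 (1.22, limma adjusted p = 0.0060) passed, as did 2.5% of all genes. Gadd45a and Runx1 were higher in each of the 9 aged libraries than in each young one, as were 3.29% of all tested genes.

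Hdac4 moved with a property that many genes shared. Genes were split by transcript length into 4 classes of equal size, and the median log2 difference from the young mean was taken for the longest (4541 bases or more) and the shortest (up to 1898 bases). The longest minus the shortest class was 0.01, 0.21 and 0.15 in SW033291 replicates 1, 4 and 6 and 0.41, 0.54 and 0.17 in aged vehicle replicates 2, 3 and 8 of batch 2. It was -0.17, -0.06 and 0.23 in aged vehicle replicates 2, 3 and 4 of batch 1, against -0.02 to 0.05 in young libraries. The 2 libraries with the most Hdac4 had the 2 largest shifts, and the Hdac4 transcript, at 8100 bases, is in the longest class. So are those of Hdac9 (7940 bases), Ncam1 (6564 bases) and Runx1 (5861 bases). In those 2 libraries Hdac9 stood at 1.78 and 1.51 TPM, within its young range of 0.73 to 1.92 TPM. Runx1 stood at 2.3 and 3.45 TPM there, above its highest young level of 0.54 TPM. Ncam1 stood at 2.83 and 3.43 TPM, above its highest young level of 1.75 TPM. The part of the length shift in these levels was not tested. With the length trend removed from each library, the log2 difference of Hdac4 was -0.72 with SW033291, 0.99 between the batches and 0.40 with age, and none passed (limma adjusted p = 0.73, 0.15 and 0.69). The transcripts of Gadd45a (1223 bases) and Myog (1495 bases) are in the shortest class, and the age difference of Gadd45a passed with the trend removed. The age differences of Runx1 and Ncam1 did not pass with the trend removed, as in the main fit.

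**Figure D3:**
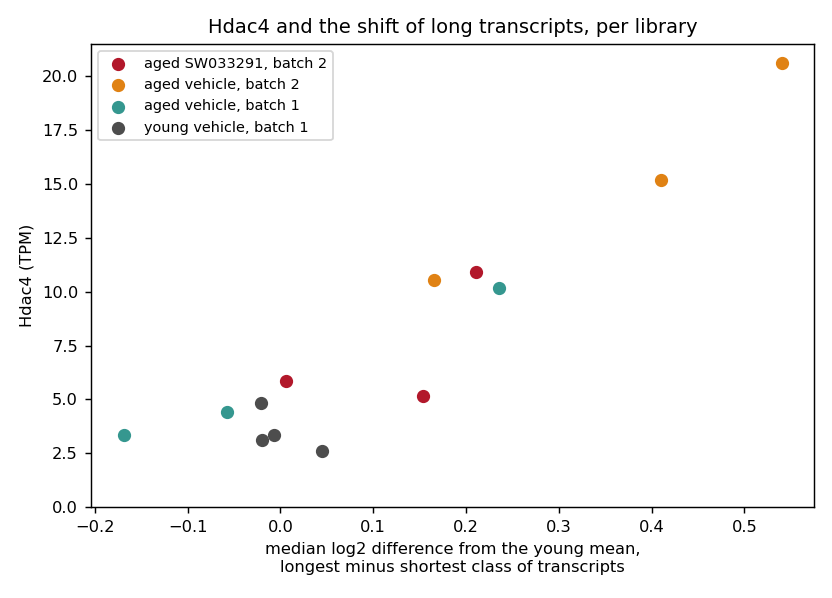
Hdac4 in TPM (vertical axis) against the shift of long transcripts (horizontal axis, longest minus shortest class, log2), with 1 point per library coloured by group. The aged vehicle libraries of batch 2 at shifts of 0.41 and 0.54 hold the most Hdac4, 15.18 and 20.59 TPM, and the young libraries lie together near a shift of 0 at up to 4.84 TPM.

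For likeness of pattern, the 3 tested genes with the highest Pearson correlation of log2(TPM + 1) across the 13 libraries were listed for each member. These are descriptions across libraries that share group, batch and composition, and carry no test. Gadd45a was closest to Cpne2, a calcium-dependent membrane-binding protein (r = 0.91), to Runx1 (0.91) and to Wipi1, an autophagy protein (0.91). Gadd45a and Runx1 had r = 0.95 within batch 1 (7 libraries) and 0.97 within batch 2 (6 libraries), whereas Gadd45a and Cpne2 had 0.98 and 0.58. Runx1 was closest to Cenpb, a centromere protein (0.96), to Rrad, a small GTPase (0.95), and to Trafd1 (0.93). Hdac4 was closest to Amotl1, Mtmr3 and Tsc1 (0.98, 0.97 and 0.97), and each held at 0.93 or more within either batch.

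Myog went with another set, 2310011J03Rik, Prmt2 and Emb (0.87, 0.87 and 0.86), and its correlation with Gadd45a was 0.90 within batch 1 but -0.50 within batch 2. The batch 2 value includes vehicle replicate 3, where Myog was lowest and Gadd45a highest of that batch. Ncam1 was closest to Ube2z, Abca7 and Ddb2 (0.92, 0.91 and 0.91). Hdac9 was closest to Ptbp3, Cxcr4 and Sdcbp (0.917, 0.917 and 0.915), and Cxcr4 is a chemokine receptor of leukocytes.

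**Figure D4:**
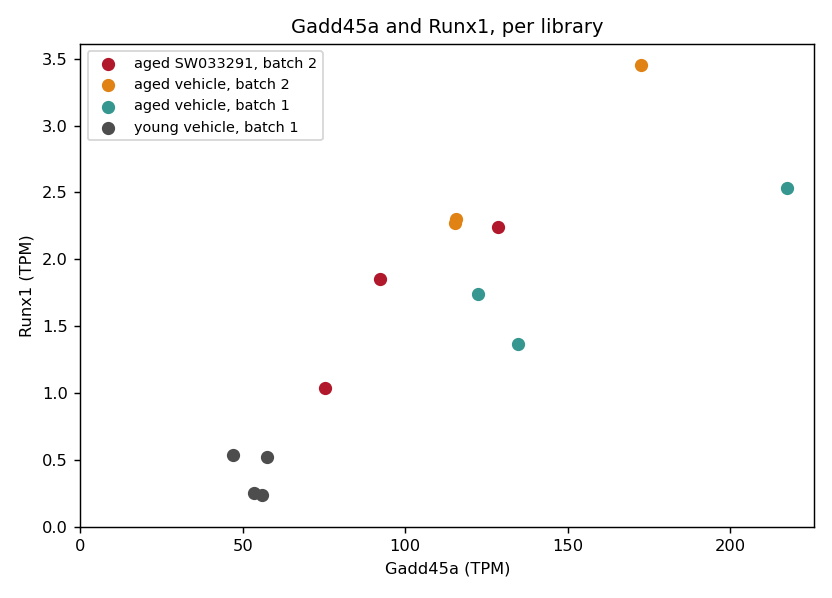
Runx1 (vertical axis, TPM) against Gadd45a (horizontal axis, TPM), with 1 point per library coloured by group. The 4 young libraries lie at the lower left, at up to 57.6 TPM of Gadd45a and 0.54 TPM of Runx1, and the 9 aged libraries spread upward to the right.

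The partners of each member in the same chain were described from lists of genes. All these lists were written with earlier results of these data known, so their counts and directions are no independent evidence. Of the growth arrest list around Gadd45a, 8 of 8 genes were tested. With age, Gadd45a and Cdkn1a, the gene of p21, a brake on the cell cycle, rose and passed, where 0.455% of all genes did. The list had a median of 0.15, against 0.06 for all genes. Gadd45b and Gadd45g, the other family members, had log2 differences of 0.03 and 0.30 (limma adjusted p = 0.98 and 0.90). Trib3, a pseudokinase induced by cellular stress, had 0.25 (limma adjusted p = 0.84). Ddit3, which encodes the stress factor CHOP, and Map3k4, a kinase bound by GADD45 proteins, had -0.33 and -0.16 (limma adjusted p = 0.55 and 0.75). Between the batches, 2 of the 8 passed, where 2.25% of all genes did. Gadd45b fell to 14.1 ± 2.31 TPM in batch 2, against 34.7 ± 2.49 TPM in batch 1 (SD, n = 3 each, limma adjusted p = 0.011). Map3k4 rose to 22.3 ± 1.16 TPM in batch 2, against 13.7 ± 1.91 TPM in batch 1 (SD, n = 3 each, limma adjusted p = 0.024). The part of the length shift in these 2 levels was not tested.

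Among RUNX factors and partners, 4 of 7 were tested. Cbfb, the non-DNA-binding subunit that stabilises RUNX proteins on DNA, stood at 101.3 ± 32.7 TPM (SD, n = 3) in aged and 93.6 ± 13.2 TPM (SD, n = 4) in young muscle of batch 1. The corepressors Cbfa2t2 and Cbfa2t3 had log2 differences of 0.33 and -0.43 with age (limma adjusted p = 0.56 and 0.51). Runx2 reached at most 0.71 TPM and Runx3 at most 0.16 TPM in any library. With SW033291 all 4 tested genes had every library below every vehicle library, a pattern of 15.1% of all genes, and none passed.

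Of the myogenic regulatory factors, Myf6, the one that adult fibres make most of, averaged 183.5 ± 43.9 TPM (SD, n = 3) in aged and 120.5 ± 6.73 TPM (SD, n = 4) in young muscle of batch 1. Its aged libraries were all above the young ones, without passing (log2 difference 0.57, limma adjusted p = 0.31). Myod1 had 0.09 (limma adjusted p = 0.95), and Myf5 did not enter the test, with a highest level of 0.88 TPM. Of 17 class IIa deacetylase and MEF2 genes, 15 were tested and none passed with age. Dach2, the repressor of Myog that Hdac4 silences, stood at 0.32 to 1.43 TPM in aged and 0.13 to 0.41 TPM in young libraries and was not tested. Mef2c and Mef2a, MEF2 factors that class IIa deacetylases hold inactive, had log2 differences of 0.44 and 0.28 (limma adjusted p = 0.67 and 0.77). Mef2c stood at 337 TPM in aged replicate 4, the library with the most Hdac4 of batch 1. It stood at 122 TPM in replicate 2 and 132 TPM in replicate 3, against 115 to 139 TPM in young libraries. Long transcripts were shifted upward by 0.235 in replicate 4, and the part of that shift in the Mef2c level was not tested. Camk2a and Camk2b, subunits of the calcium-activated kinase that drives these deacetylases out of the nucleus, had log2 differences of -0.31 and 0.49 (limma adjusted p = 0.29 and 0.15). Camk2g was called higher in batch 2 than in batch 1, by 0.475 (limma adjusted p = 0.038). It was the 1 of the 15 called between the batches, where 2.25% of all genes were, and the part of the length shift in its level was not tested.

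Of 6 genes around Ncam1, 2 were tested, Ncam1 itself and Fgfr1, a receptor that NCAM can bind, with a log2 difference of -0.07 (limma adjusted p = 0.95). St8sia2 and St8sia4, the enzymes that add polysialic acid to NCAM, reached at most 0.1 and 2.05 TPM, and Ncam2 was at 0 in 12 of 13 libraries.

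Genes of the acetylcholine receptor and synapse, many of them targets of myogenin, had 11 of 14 tested genes above 0 with age. Their median was 0.19, against 0.06 for all genes, and none passed. The foetal gamma subunit Chrng, absent from innervated adult fibres, measured 1.69, 3.61 and 0.64 TPM in the aged libraries 2, 3 and 4, against 0.06 to 0.14 TPM in young libraries (log2 difference 1.32, limma adjusted p = 0.11). Like Gadd45a, Runx1 and Myog, Chrng was highest in aged replicate 3. The alpha subunit Chrna1 had 1.13 (limma adjusted p = 0.090), Chrnb1 0.93 (limma adjusted p = 0.055) and Musk, a synaptic kinase, 1.38 (limma adjusted p = 0.060). Of these, Musk was highest of batch 1 in aged replicate 4, at 10.63 TPM. In aged vehicle of batch 2, Musk stood at 10.27 to 17.07 TPM, the libraries where Hdac4 was also high. Long transcripts were shifted upward in these libraries, by 0.235 in replicate 4 of batch 1 and 0.17 to 0.54 in batch 2. The part of that shift in the Musk level was not tested.

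Of 20 other denervation-responsive genes, 18 were tested. With age 15 were above 0, with a median of 0.72 against 0.06 for all genes. The test was passed by 2 of the 18, where 0.455% of all genes passed. The list had been written with results of these data known, so its direction is no independent evidence. Sln and Ankrd1, an inhibitor of the calcium pump and a stress protein of the sarcomere, rose by 4.40 and 2.14 on the log2 scale (limma adjusted p = 5.41e-04 and 0.039). Myl4, the embryonic myosin light chain, averaged 18.9 ± 1.00 TPM (SD, n = 3) in aged and 7.38 ± 2.61 TPM (SD, n = 4) in young muscle, with every aged library above every young one (limma adjusted p = 0.053). The metallothioneins Mt2 and Mt1 and the AMP deaminase Ampd3 had log2 differences of 1.53, 0.76 and 0.82 (limma adjusted p = 0.39, 0.78 and 0.23). Between the batches 1 of the 18 passed, where 2.25% of all genes did. This was Scn4a, the sodium channel of adult fibres, at 211 ± 42.8 TPM in batch 2 and 122 ± 22.1 TPM in batch 1 (SD, n = 3 each, limma adjusted p = 0.025). With the length trend removed, 9 of all genes passed between the batches, and the part of that trend in the Scn4a level was not tested. With SW033291, 14 of the 18 were below 0 with a median of -0.17, close to that of all genes.

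**Figure D5:**
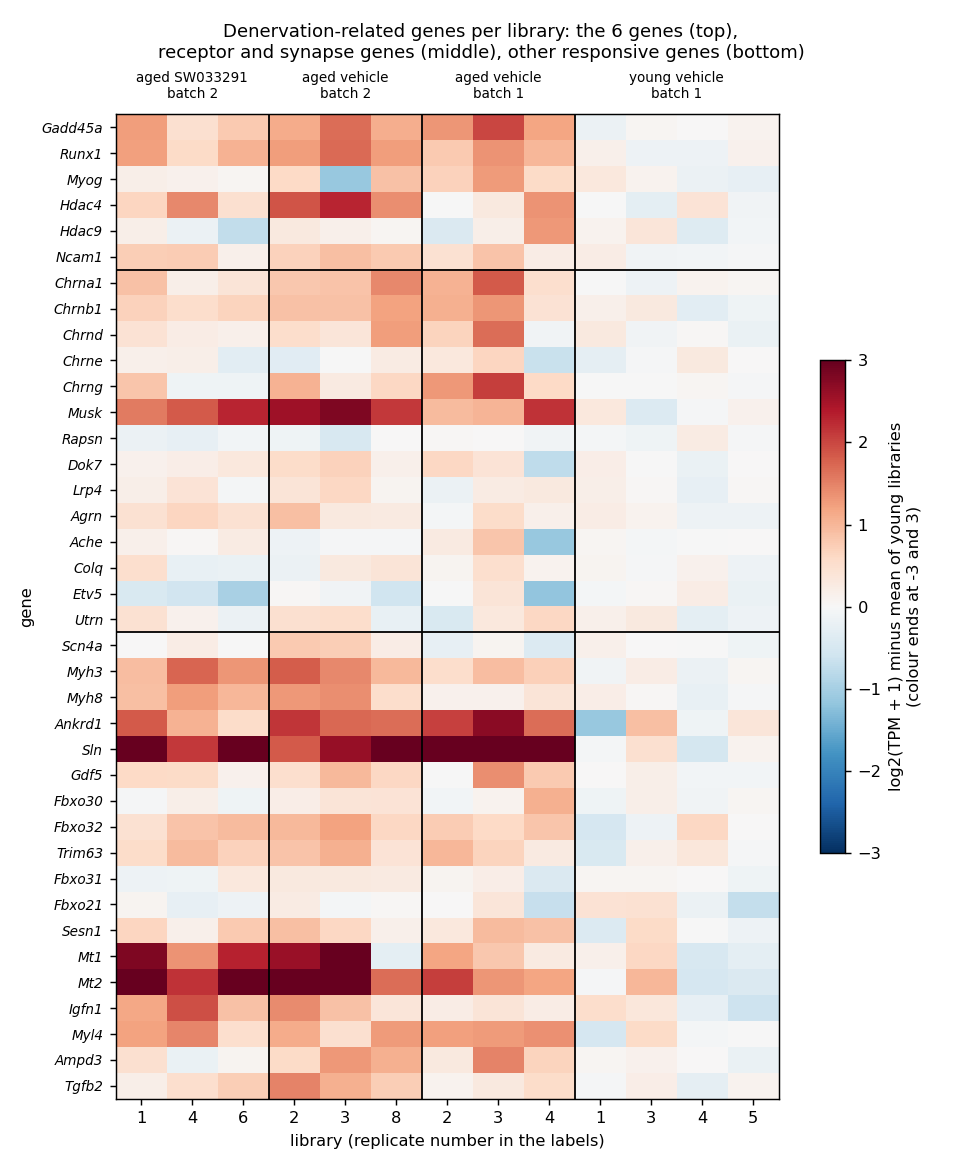
Log2(TPM + 1) minus the mean of the young libraries (colour, ending at -3 and 3) for the 6 genes and the tested genes of 2 lists (rows) in the 13 libraries (columns, by group). Gadd45a, Runx1, Chrna1, Chrnb1, Musk and Sln are red in every aged library, whereas Myog is blue in aged vehicle replicate 3 of batch 2 and Hdac4 is deepest in aged vehicle replicates 2 and 3 of batch 2.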

How the data were processed

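The submitters' processing notes name STAR, RSEM, DESeq, DESeq2 and mm9, without versions or order. TPM values of 13 libraries were deposited by the authors. They also deposited a comparison table of age and one of SW033291 that hold, per the file headers, a log2 fold change and its standard error, a test statistic (a score), a mean of normalised counts (a signal), and an unadjusted p-value, with an adjusted p-value for age alone. The libraries that entered those tables are not stated.

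In the deposited TPM table, names and rows were out of register. After 27 spreadsheet dates were undone, all names were sorted in byte order and put back. The log2 differences of SW033291 then had a Pearson correlation of 0.93 with the authors' deposited table across 6361 genes, against -0.01 before. Those of age had 0.78 across 813 genes. For that check the aged vehicle libraries of both batches were set against the young ones, unlike the age comparison within batch 1. By name, 23988 genes were found in the authors' table of SW033291, but only these 813 in that of age. How the genes of the age table were chosen is not stated, so a place in it may itself reflect a small adjusted p. Among the rows around each member, the correlation for SW033291 was 0.78 at Myog and 0.957 to 0.975 at the other members. Every value rests on this order.

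The scale was log2(TPM + 1). Genes needed 1 TPM in 3 or more libraries. A limma model (version 3.58.1, R 4.3.3) had a coefficient per group over all 13 libraries and a variance trend, with Benjamini-Hochberg adjustment over all tested genes at 0.05. Folds and log2 differences are on that scale. The fit was tested on simulated data, drawn as independent normal values with no batch, length or composition shift. That test therefore does not cover those features of the libraries. Transcript lengths came from GENCODE M21, which may differ from the authors' annotation. Genes named from lists were those past the threshold and up to 4 others by size of the age difference. Dach2, Runx2, Runx3, Myf5, Ncam2, St8sia2 and St8sia4 were named after their values were seen. The members and lists were chosen with earlier results of these data known. No sample was left out. Alternatives covered the pseudocount, filter, scaling, variance trend, libraries and replicate block. Depth is unknown for TPM, so no counting interval is given.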

Additional observations from a re-analysis of the deposited data

Results flagged for a closer look

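Abca7, listed for its likeness to Ncam1, stood at 5.83 TPM in young vehicle replicate 1, the highest of the 4 young libraries and far from the other three. Chance alone flags about 1 in 20 groups of this kind.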

How the results depend on the processing

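Of the 6 genes, 1 passed with age. The number was 2 with a pseudocount of 0.1, under quantile normalization, with the 20 most abundant genes left out and with both batches pooled, and 4 with the batch 2 aged libraries in place of batch 1. The genes that passed among all tested numbered 54, against 58, 71, 65, 297 and 1679 under these 5 alternatives in that order. The 54 split into 44 higher and 10 lower, against 36 and 20 under median-of-ratios scaling, 41 and 30 under quantile normalization and 37 and 28 with the 20 most abundant genes left out. The replicate block was run on the compared groups alone. In it only libraries whose number occurs in both groups inform the difference. These were replicates 3 and 4 with age, and replicates 2 and 3 between the batches, so its results rest on few libraries. With it the number of members was 0 with age, and Gadd45a stood at 1.56 (limma adjusted p = 0.24). There 6 of all genes passed, against 24 for the same groups without the block. Between the batches the main number was 0, with 0 to 1 when 1 library was left out, and 1 with the replicate block. With that block 905 of all genes passed, against 1 for the same groups without it and 267 in the main fit. The shared numbers are not said to pair libraries. Correlations of their deviations were 0.17 and 0.04 with age and -0.15 and -0.06 between the batches. No paired analysis was possible because the SW033291 and vehicle libraries share no number. With SW033291 no member passed under any alternative run.

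Hdac9 with age ranged from -0.14 (without aged vehicle replicate 4 of batch 1) to 0.74 over the fits without 1 library. Myog with SW033291 ranged from -0.62 (without vehicle replicate 3) to 0.39, with -0.025 without SW033291 replicate 1. With the length trend removed, Ncam1 turned to 0.022 with SW033291 and to -0.017 between the batches. Between the batches, Gadd45a ranged from -0.40 to 0.040 (without batch 1 replicate 3), and Hdac9 from -0.57 to 0.31 (without batch 1 replicate 4). With the replicate block Hdac9 stood at 0.36, and there too batch 1 replicate 4 does not inform the difference. Beyond the libraries named, the cause of these changes was not tested. Removal of the length trend, and of the 2 libraries with most neutrophil transcripts, were added after seeing the data. Depth is unknown, so what counting error allows for genes near 1 TPM, such as Runx1 and Hdac9, cannot be given.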
